A study of Homo sapiens with 12 samples.

Results

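The 106 genes described here are zinc finger genes of chromosome 19, selected on their names, their position and the exon and intron counts of these same libraries. A gene was a member if its symbol was ZNF with a number and at most 1 letter after it, if it lay on chromosome 19 of GRCh38, and if at least 10 exon counts and 10 intron counts were found in each of at least 3 libraries. The count table held 17508 genes, of which 208 had such a name and position, and 106 of these met the minimum. Over the whole table, 9380 genes met it.

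TYK-nu, a human ovarian carcinoma cell line, was treated with 15 µM cisplatin, a platinum drug that crosslinks DNA, or with DMSO as the control, for 24 or 72 h. Each of the 4 groups (DMSO at 24 h, cisplatin at 24 h, DMSO at 72 h and cisplatin at 72 h) had 3 libraries of poly(A) RNA, made with a strand-specific kit, and the 12 libraries shared 1 sequencing lane. Fragments on exons and on introns had been counted separately for each gene, so that spliced and intron-containing RNA could be compared. The labels say that cells were grown in triplicate and do not say whether these were separate cultures, so the p-values measure only the spread between these libraries. Library totals, exons and introns together, lay between 19940352 and 30792139 in DMSO at 24 h, 18526830 and 36911333 in cisplatin at 24 h, 26921033 and 44713703 in DMSO at 72 h, and 31908403 and 68753262 in cisplatin at 72 h.

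Most genes of this family encode proteins with an array of C2H2 zinc fingers, each of which reads a few bases of DNA, and many of the proteins also carry a KRAB domain. The KRAB domain binds TRIM28, also called KAP1, which brings the histone methyltransferase SETDB1 and HP1 proteins to the bound site, often a transposable element, and silences it. The family expanded by tandem duplication, which left groups of similar neighbours along chromosome 19.

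Of the 102 genes with the name and position that were not members, 8 had no exon entry in the table, 21 had no count in any library, 35 had enough exon counts but too few intron counts, and 4 had enough intron counts but too few exon counts. The 55 genes short of both include the 21 without a count. The minimum of 10 was just reached by ZNF607 (exon counts 2 to 16 and intron counts 2 to 21 over the libraries), ZNF112 (6 to 39 and 1 to 12) and ZNF324B (5 to 33 and 4 to 29). It was just missed by 5 genes with a third-highest count of 9, of which 3 were ZNF136 (exon counts 151 to 600 and intron counts 1 to 15), ZNF14 (182 to 735 and 1 to 11) and ZNF420 (181 to 893 and 3 to 20), all 3 short in introns. Members at the minimum in a library numbered from 55 (cisplatin at 24 h, replicate 3) to 105 (cisplatin at 72 h, replicate 2), 44 members reached it in all 12 libraries, and 5 (ZNF44, ZNF564, ZNF566, ZNF607 and ZNF600) reached it in libraries of 72 h alone, so that the rule itself favours higher counts at 72 h for them. It does so too for members that reached it in fewer than 3 libraries of 24 h, such as ZNF285, ZNF846, ZNF490, ZNF233, ZNF283 and ZNF599. Among genes listed for their known roles, ZNF91, ZNF274, ZNF587 and ZNF417 were members, ZNF93, ZNF43, ZNF85, ZNF90, ZNF331, ZNF382 and ZNF471 fell short, and ZNF146 was not in the table. Other annotated genes overlapped 76 members, on the opposite strand for 58 of them, and the strand option of the counting is not known, so that counts of an overlapping gene may be included.

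The label of the cells was compared with marker genes, in exon CPM, which are exon counts relative to the library total after TMM scaling (mean of 3 libraries of DMSO at 24 h). Of 10 markers of an ovarian carcinoma line, VIM, an intermediate filament of mesenchymal cells, was the highest at 7111, and KRT18, an epithelial keratin, was at 173. KRT8 was at 13.1, WT1 at 3.19, KRT19 at 2.00 and EPCAM at 0.264, PAX8 had at most 2 counts and KRT7 at most 8 in any library, CDH1 had none, and MUC16 was not in the table. PAX8, KRT7 and CDH1, found in many ovarian carcinomas, were thus absent or nearly so, and the list does not by itself identify the line. Of the leukocyte markers, PTPRC was at 0 in every library, and CD68, a lysosomal protein and the most abundant, summed with PTPRC and CD3E to between 322 and 379 at 24 h and between 593 and 658 at 72 h. The 3 endothelial markers summed to between 3355 and 3479 at 24 h and between 2033 and 2307 at 72 h, led by PECAM1 (a mean of 2451 in DMSO at 24 h), with CDH5 at 1009 and VWF at a mean of 1.02 or less in each group. These sums moved with time as many members did, and their part in the results was not tested. Fibroblast markers summed to 0.213 or less in every library, with LUM at 0.

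The members were expressed at low levels. Their median was 272 exon counts and 23.1 intron counts per library, against 1312 and 84.5 over the 9376 genes at the minimum that had a symbol. Per kilobase of exon the median level was 1.61 exon CPM, against 3.55 in ZNF genes of other chromosomes, 10.4 in other genes of chromosome 19 and 7.33 over all. ZNF428 (49.9 exon CPM per kilobase), ZNF787 (23.7) and ZNF581 (21.5) had the highest levels by this scale, which rests on merged exons of GENCODE release 44 and is approximate. Exon counts over all libraries were 8.88 times the intron counts at the median member, against 14.6 over all genes, from 0.153 in ZNF611 to 162 in ZNF260. Intron counts outnumbered exon counts in 11 members (10.4%), among them ZNF611 and ZNF726, and in 569 of the 9380 genes (6.07%). With each count divided by its exon or intron length, the ratio was highest in ZNF675 (592), ZNF787 (587) and ZNF551 (415) and lowest in ZNF211 (0.429), ZNF599 (0.431) and ZNF324B (0.460). Across the 106 members, which are not independent of each other and share libraries, the exon/intron ratio had a Spearman correlation of 0.69 with the exon level per kilobase, which is built in to some degree since exon counts enter both, and of -0.09 with intron length.

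**Figure D1:**
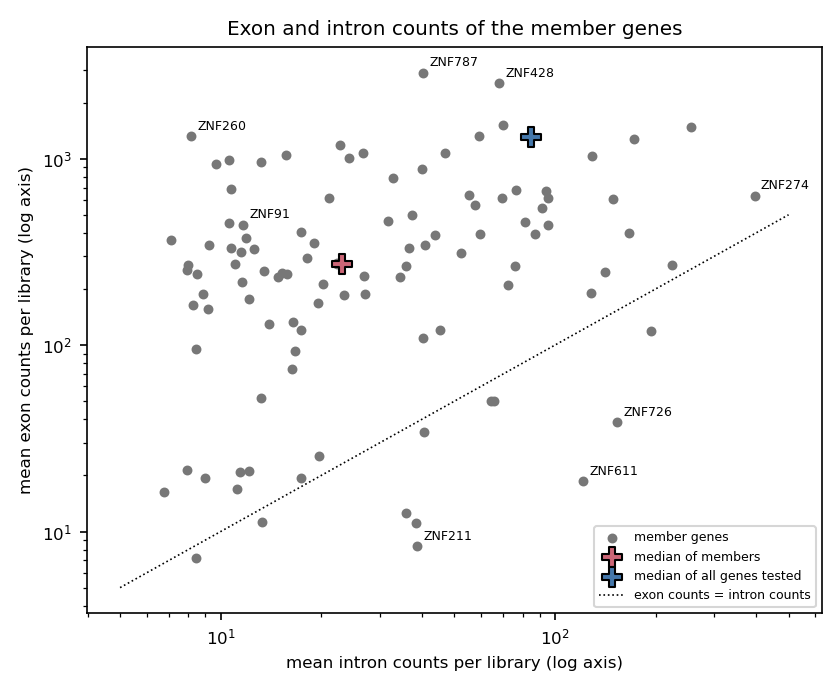
Mean exon counts against mean intron counts per library of the 106 members (points, log axes), with the median of the members and of all genes tested (crosses). The median member had 272 exon and 23.1 intron counts, and 11 members lay below the line of equal counts.

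Summed over the members, exon counts made up 0.133%, 0.136% and 0.138% of all exon counts in the 3 libraries of DMSO at 24 h, and 0.137%, 0.136% and 0.136% in cisplatin at 24 h. At 72 h the shares were 0.147%, 0.147% and 0.153% in DMSO and 0.156%, 0.151% and 0.152% in cisplatin. Every library of 72 h was thus above every library of 24 h. Intron counts of the members took 0.220% ± 0.005 (SD, n = 3) of all intron counts in DMSO at 24 h, 0.223% ± 0.014 in cisplatin at 24 h, 0.207% ± 0.004 in DMSO at 72 h and 0.224% ± 0.006 in cisplatin at 72 h. The ratio of the summed exon to the summed intron counts was 8.90 ± 0.24, 8.50 ± 1.01, 9.86 ± 0.17 and 9.03 ± 0.16 (SD, n = 3) in the same order. In cisplatin at 24 h it spanned 7.48 (replicate 2) to 9.51 (replicate 3), wider than in any other group, and over all genes the ratio was also widest there (12.99 to 14.6). Over all genes it was 14.4 ± 0.49, 13.8 ± 0.83, 13.7 ± 0.10 and 13.2 ± 0.30 (SD, n = 3), lower at 72 h in DMSO where that of the members was higher. A sum is weighted to the genes with the most counts. Gene by gene, the median log2 change of the ratio over time in DMSO was positive in both lists. It was 0.116, 0.0389 and 0.0952 for members and 0.0886, 0.0709 and 0.0488 for all genes (replicates 1, 2 and 3). In bulk RNA such values cannot tell fewer cells expressing a gene from less of its RNA per cell.

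Between 24 and 72 h in DMSO, exon counts rose for 28 and fell for 15 of the 104 members in the test (edgeR, adjusted p under 0.05), where 32.6% of all 10444 genes rose, 32.5% fell and 65.1% changed. In cisplatin 27 rose and 13 fell, against 32.0% and 31.5% of all genes and 63.5% in either direction. The split was 28 and 15 in DMSO also with RLE factors or library totals, and 26 and 13 or 30 and 12 in cisplatin. The calls among members and among all genes are not like for like, since the members had fewer counts and a median standard error of 0.12 against 0.08 (log2) in both treatments, and the difference was not tested. The median member changed by 0.10 in DMSO and by 0.16 in cisplatin on the log2 scale, where the median of all genes was 0.01 and 0.02. ZNF genes of other chromosomes had 69 rising and 15 falling of 144 in DMSO and 71 and 16 in cisplatin, and the other genes of chromosome 19 had 243 and 128 of 566, and 247 and 125.

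ZNF100 (ENSG00000197020, chr19:21722771-21767579, minus strand) had the largest fall among the named members. Its exon CPM was 16.9, 17.3 and 16.3 in DMSO at 24 h, 15.1, 13.8 and 17.3 in cisplatin at 24 h, 8.28, 7.66 and 7.17 in DMSO at 72 h, and 8.04, 8.03 and 9.42 in cisplatin at 72 h. All 6 libraries of 72 h were below all 6 of 24 h, and the treatments overlapped at each time. The naming rule required the groups not to overlap in the comparison that named a member. Where such a lack of overlap is given, here and below, it follows from the rule and is no separate support. The log2 change over time was -1.14 ± 0.11 (SE) in DMSO (edgeR, adjusted p 1.9e-09) and -0.86 ± 0.10 in cisplatin (adjusted p 1.33e-07). ZNF714 (ENSG00000160352, chr19:21082159-21125270, plus strand), of the same stretch of the chromosome, was at 21.1, 21.5 and 22.7 exon CPM in DMSO and 23.1, 20.5 and 23.1 in cisplatin at 24 h. At 72 h it was at 11.5, 12.1 and 13.3 in DMSO and at 17.4, 13.7 and 15.1 in cisplatin. The times again did not overlap, and at 72 h each cisplatin library was above each DMSO library. Its changes were -0.81 ± 0.10 in DMSO (adjusted p 9.91e-08) and -0.53 ± 0.09 in cisplatin (adjusted p 3.08e-05).

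ZNF551 and ZNF530, near the end of the long arm, also fell in both treatments. ZNF551 (ENSG00000204519) went from 29.8, 28.2 and 27.5 exon CPM to 15.3, 13.7 and 17.8 in DMSO and from 26.4, 28.1 and 31.6 to 18.3, 17.9 and 17.1 in cisplatin, a change of -0.86 ± 0.09 (adjusted p 1.54e-08) and -0.69 ± 0.09 (adjusted p 3.78e-07). The times did not overlap. ZNF530 (ENSG00000183647), which overlaps no annotated gene, went from 8.83, 8.72 and 10.4 to 5.07, 4.97 and 6.29 in DMSO and from 10.6, 9.38 and 9.81 to 6.06, 6.22 and 5.77 in cisplatin. That is -0.75 ± 0.12 (adjusted p 1.1e-05) and -0.71 ± 0.12 (adjusted p 1.2e-05), again with the times apart, and its intron counts fell by 1.08 in DMSO and by 0.67 in cisplatin (adjusted p 0.00326 and 0.0448). Further falls were those of ZNF121 (-0.81 in DMSO and -0.42 in cisplatin, adjusted p 1.13e-05 and 0.00636), ZNF765 (-0.51 and -0.59) and, in cisplatin, ZNF614 (-0.61, adjusted p 0.0187). ZNF614 had at most 2.46 exon CPM in any library and passed in 11 of 13 alternatives.

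Among the members named by the rule, ZNF446 (ENSG00000083838, chr19:58474017-58481230, plus strand), the last before the end of the long arm, rose most in each treatment. In DMSO alone ZNF283, picked after its values were seen, rose more (1.45 ± 0.48, adjusted p 0.0108), though not in all 13 alternatives. Its mean exon counts, 7.67 in DMSO at 24 h and 26.7 in DMSO at 72 h, were too few for the rule. The exon CPM of ZNF446 was 10.7, 11.6 and 8.84 in DMSO and 8.22, 11.5 and 10.3 in cisplatin at 24 h, and 21.2, 22.4 and 22.2 in DMSO and 20.1, 24.2 and 21.9 in cisplatin at 72 h. For ZNF446 each library of 72 h was above each of 24 h, by a log2 change of 1.07 ± 0.11 in DMSO (adjusted p 1.38e-08) and 1.13 ± 0.11 in cisplatin (adjusted p 5.13e-09). ZNF581 (ENSG00000171425) was at 24.4, 26.4 and 20.4 in DMSO and 23.9, 24.5 and 24.5 in cisplatin at 24 h, and at 49.5, 46.5 and 46.7 and 40.9, 46.1 and 47.2 at 72 h. The change was 0.99 ± 0.08 (adjusted p 1.82e-10) and 0.88 ± 0.08 (adjusted p 1.48e-09), without overlap of the times. ZNF446 overlaps ZNF324, SLC27A5 and a gene without a symbol, and ZNF581 overlaps CCDC106 and ZNF580. Among the falls above, ZNF100, ZNF714 and ZNF551 also overlap other annotated genes.

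ZNF333 (ENSG00000160961), which overlaps the genes ADGRE2 and ADGRE3, rose in both exons and introns. Its exon CPM was 6.25, 9.42 and 8.08 in DMSO and 7.43, 9.24 and 6.54 in cisplatin at 24 h, and 17.4, 15.3 and 14.9 and 15.4, 15.3 and 14.6 at 72 h, with no overlap. The exon change was 0.996 ± 0.129 in DMSO (adjusted p 3.65e-07) and 0.94 ± 0.13 in cisplatin (adjusted p 7.67e-07). ZNF528 (ENSG00000167555), with no overlapping gene, was at 11.7, 13.6 and 12.2 in DMSO and 15.9, 14.7 and 14.8 in cisplatin at 24 h, and at 20.9, 23.9 and 23.5 and 21.3, 22.2 and 22.6 at 72 h. At 24 h its cisplatin libraries were all above its DMSO libraries, and both treatments were higher at 72 h, by 0.86 ± 0.09 (adjusted p 7.5e-09) and 0.54 ± 0.08 (adjusted p 5.61e-06). Among the others, ZNF285 rose in both treatments (0.73 ± 0.12 and 0.69 ± 0.11), ZNF846 in DMSO (0.98 ± 0.24, adjusted p 0.00109), and ZNF554 and ZNF490 in cisplatin (0.59 ± 0.21 and 0.55 ± 0.14, adjusted p 0.0168 and 0.00155). At 24 h, intron counts in DMSO and cisplatin were 8, 8, 4 and 10, 10, 6 for ZNF285, and 8, 8, 9 and 8, 23, 5 for ZNF846. For ZNF490 they were 10, 6, 8 and 4, 8, 7. ZNF285, ZNF846 and ZNF490 were thus members only with libraries of 72 h counted, so their rises support no direction over time. ZNF846 and ZNF554 were low, with at most 3.38 and 4.09 exon CPM, and ZNF554 passed in 11 of 13 alternatives, with a change of 0.34 at the lowest.

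**Figure D2:**
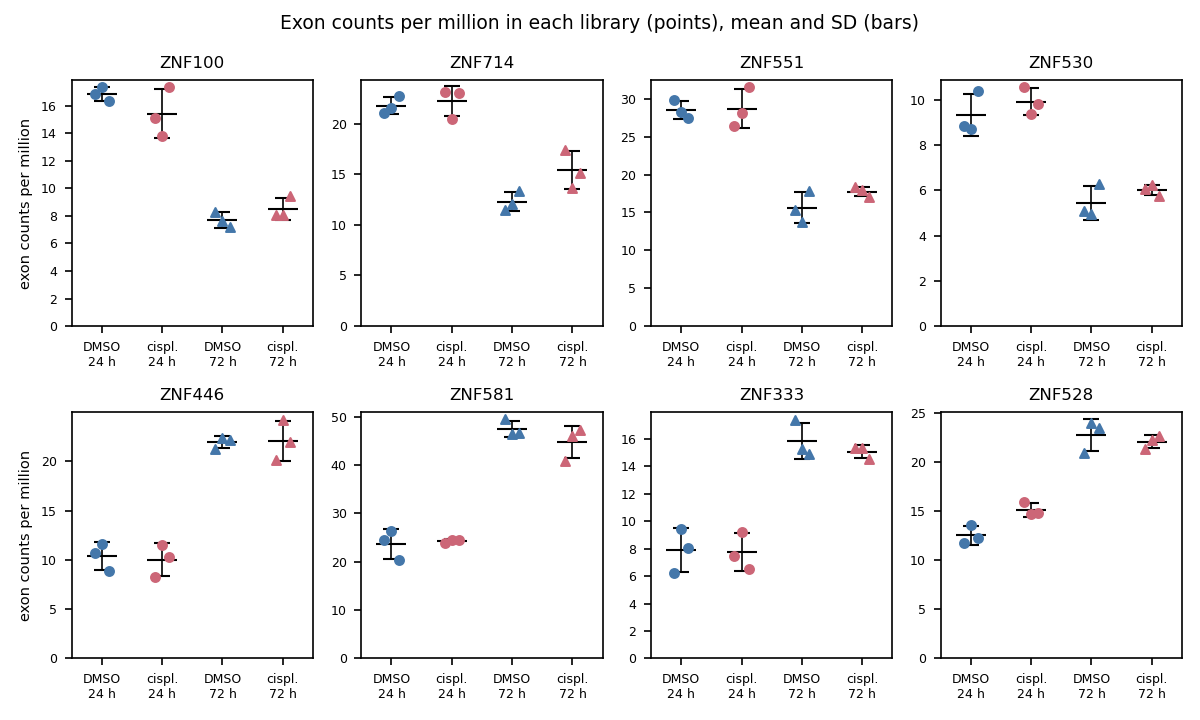
Exon CPM (TMM-scaled) of 8 members in each library, circles for 24 h and triangles for 72 h, blue for DMSO and red for cisplatin, with the mean and SD of 3 libraries. ZNF100 had 16.3 to 17.3 in DMSO at 24 h and 7.17 to 8.28 at 72 h, and ZNF446 had 8.84 to 11.6 and 21.2 to 22.4.

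The DMSO and cisplatin comparisons over time share no library. Across the 104 members, their exon changes had a Pearson correlation of 0.80 and a Spearman correlation of 0.80, and across all 10444 genes 0.91 and 0.92, where genes are not independent replicates. Of the members, 31 passed in both treatments, 20 higher and 11 lower at 72 h, which is 72.1% of the calls in DMSO and 77.5% of those in cisplatin. Over all genes the shares were 84.8% and 86.9%. The plot of exon changes in both treatments shows these members along the diagonal.

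**Figure D3:**
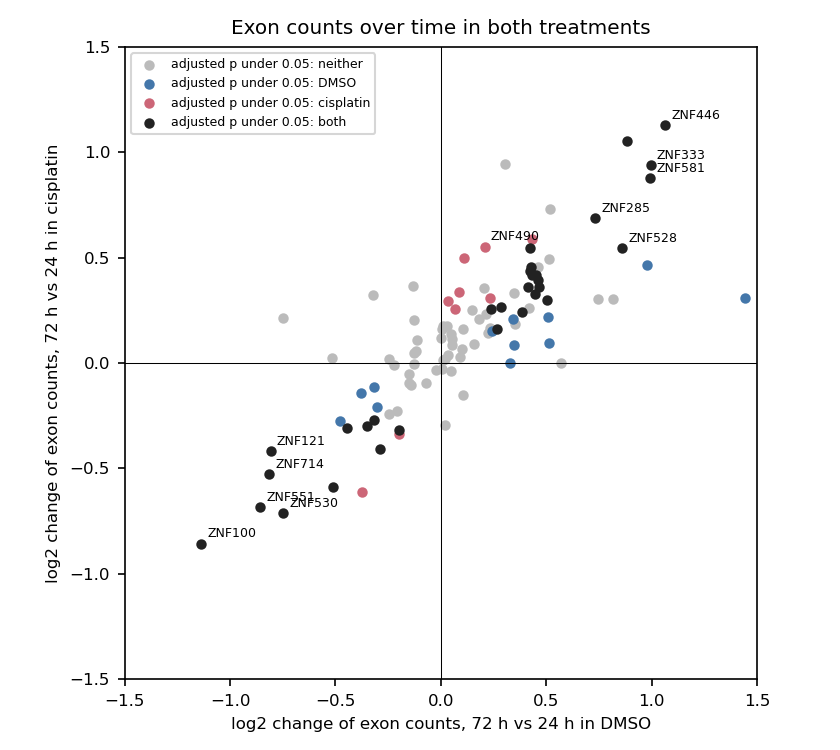
Log2 change of exon counts at 72 h against 24 h in DMSO (horizontal) and in cisplatin (vertical), each point a member, coloured by where its adjusted p was under 0.05. ZNF100 (-1.14 and -0.86) and ZNF446 (1.07 and 1.13) are among the largest changes, and 31 members passed in both treatments.

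Members were grouped by position, with consecutive genes of the name rule joined where their starts lay at most 1 Mb apart, which gave 7 groups with at least 3 members and placed 94 of the 106 members. In the group next to the centromere on the short arm (chr19:19668796-24129968), 33 genes of the name rule included 11 members. Exon counts of 5 of these fell in DMSO and of 5 in cisplatin, where 32.5% and 31.5% of all genes fell, none rose in either (edgeR), and 4, namely ZNF714, ZNF708, ZNF100 and ZNF675, fell in both, where the calls of ZNF675 and that of ZNF708 in DMSO were not kept in all 13 alternatives. The median change was -0.29 in DMSO and -0.14 in cisplatin, 10 and 7 of the 11 were below 0, and no other gene at the count minimum lay in that stretch. ZNF91, the known repressor of SVA and LINE-1 retrotransposons, belongs to this group and did not pass, at 12.9, 13.6 and 13.1 exon CPM in DMSO at 24 h and 13.2, 15.4 and 13.9 at 72 h (log2 0.10 ± 0.11, adjusted p 0.431).

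In a group on the long arm (chr19:43525497-44500524), 17 of 20 genes were members. Exon counts of 9 rose in DMSO and of 4 in cisplatin, where 32.6% and 32.0% of all genes rose, so that the share in cisplatin was below that of all genes. None fell, and ZNF428, ZNF224, ZNF233 and ZNF285 rose in both, all but ZNF233 in all 13 alternatives. Members of this group that reached the minimum in fewer than 3 libraries of 24 h, among them ZNF233, ZNF285 and ZNF283, needed libraries of 72 h. The rule thus favours rises in this group, and the rises of these genes support no direction over time. ZNF224, known as a repressor that binds WT1, was at 16.1, 15.9 and 17.1 exon CPM in DMSO at 24 h and at 22.3, 21.2 and 21.8 at 72 h, and in cisplatin at 15.1, 16.8 and 16.9 and at 19.9, 20.8 and 21.9. The times did not overlap, and the change was 0.41 ± 0.08 and 0.36 ± 0.08 (adjusted p 9.16e-05 and 0.000384). The group's median was 0.41 in DMSO and 0.23 in cisplatin, and of the 4 other genes tested in the stretch 2 rose and 1 fell in either treatment. In the group at chr19:11483427-12640098, 2 of 7 members rose in DMSO and 3 in cisplatin, with medians of 0.42 and 0.40, and none fell. ZNF44 and ZNF564 of this group, the latter among the rises in both treatments, were members through libraries of 72 h alone, so these values support no direction over time. The remaining groups had members in both directions or few calls: 2 up and 1 down of 8 in DMSO at chr19:8509678-9793180, 1 and 0 of 8 at chr19:36182276-37719761, 4 and 3 of 16 at chr19:51571283-53580269, and 8 and 5 of 25 at chr19:55576774-58481230. In cisplatin the same groups had 1 and 1, 2 and 0, 4 and 3, and 8 and 3. These groups were not tested against each other, and the genes singled out in them, other than ZNF714, ZNF100, ZNF675, ZNF428, ZNF224, ZNF285 and ZNF91, were chosen after their values were seen.

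**Figure D4:**
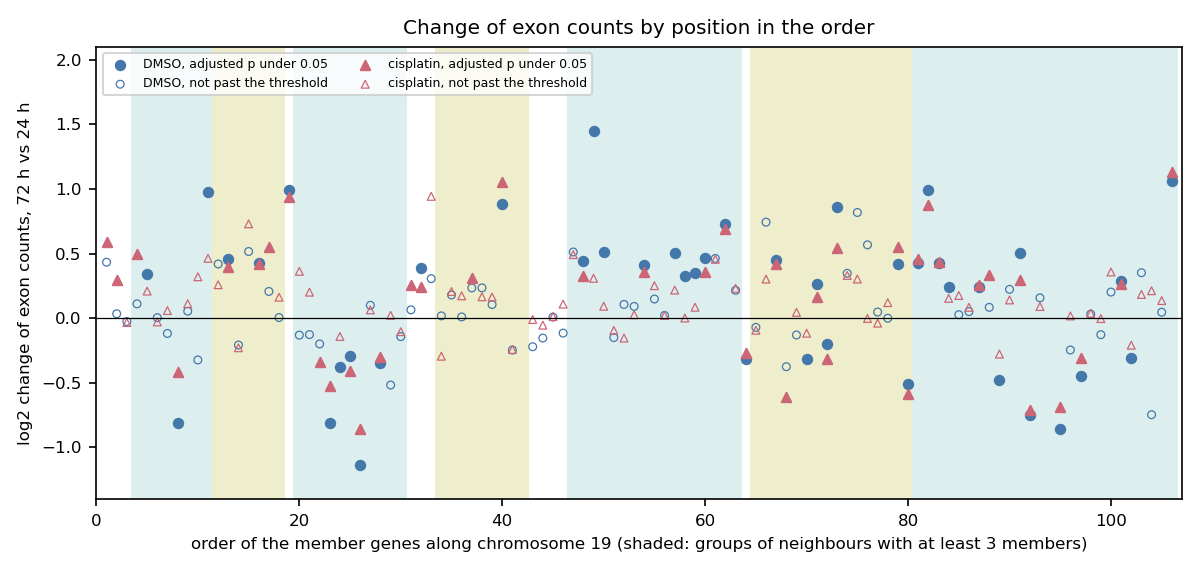
Log2 change of exon counts at 72 h against 24 h by order of the members along chromosome 19, circles for DMSO and triangles for cisplatin, filled where the adjusted p was under 0.05, with shading for groups of neighbours. In the group next to the centromere 5 members fell in each treatment and none rose, and in the group of 17 members on the long arm 9 rose in DMSO and 4 in cisplatin and none fell, where 32.6% and 32.0% of all genes rose. Some of these 17 were members only with libraries of 72 h counted.

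Among members that passed in both treatments, promoters are shown for the 3 with the largest falls in DMSO in the centromeric group and for the largest rise in DMSO in the group of 17, to let the neighbours be compared. The sequences come from RefSeq on GRCh38.p14, read on the strand of the gene as the 250 bases before its start: ZNF100 at chr19:21767580-21767829 (minus strand), ZNF714 at chr19:21081953-21082202 (plus), ZNF675 at chr19:23687213-23687462 (minus) and ZNF285 at chr19:44401609-44401858 (minus). Capitals mark the motifs searched, on either strand: CCAAT (bound by NF-Y), TATAAA (bound by TBP), GGGCGG (GC box), CACGTG (E-box), TGACGTCA (cAMP response element), CCGGAAG (ETS), GCATGCGC (NRF1) and AAGATGGC (YY1).
ZNF100: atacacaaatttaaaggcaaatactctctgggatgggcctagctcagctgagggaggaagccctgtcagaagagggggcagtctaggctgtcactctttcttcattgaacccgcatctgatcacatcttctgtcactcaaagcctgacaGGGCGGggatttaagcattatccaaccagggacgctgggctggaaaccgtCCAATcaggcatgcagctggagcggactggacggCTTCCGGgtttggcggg
ZNF714: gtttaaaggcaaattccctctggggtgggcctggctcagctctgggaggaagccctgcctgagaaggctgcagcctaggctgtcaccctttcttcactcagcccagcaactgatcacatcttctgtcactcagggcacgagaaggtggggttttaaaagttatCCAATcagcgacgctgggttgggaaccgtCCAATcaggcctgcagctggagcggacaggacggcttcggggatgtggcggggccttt
ZNF675: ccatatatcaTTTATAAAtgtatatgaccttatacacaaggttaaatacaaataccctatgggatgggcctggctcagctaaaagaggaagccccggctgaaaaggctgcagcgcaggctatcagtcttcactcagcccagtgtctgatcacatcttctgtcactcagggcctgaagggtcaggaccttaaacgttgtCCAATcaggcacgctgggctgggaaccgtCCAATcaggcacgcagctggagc
ZNF285: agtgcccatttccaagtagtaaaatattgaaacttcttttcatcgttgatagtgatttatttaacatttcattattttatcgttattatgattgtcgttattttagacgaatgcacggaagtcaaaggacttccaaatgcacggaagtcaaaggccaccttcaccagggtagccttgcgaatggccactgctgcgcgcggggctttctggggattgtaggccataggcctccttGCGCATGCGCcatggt
The 3 genes of the centromeric group all hold CCAAT, and their longest shared runs are 23 bases (ZNF100 and ZNF714), 24 (ZNF100 and ZNF675) and 27 (ZNF714 and ZNF675), against at most 7 with ZNF285, which holds NRF1 letters that overlap on both strands.

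RefSeq promoters were matched for 95 of the 106 members. CCAAT was found in 44.2% of them, in 42.1% of ZNF genes of other chromosomes, in 35.0% of other genes of chromosome 19 and in 33.0% of all 27305 promoters. GGGCGG was found in 56.8%, 57.5%, 58.6% and 42.3% of the same lists and the ETS letters CCGGAAG in 32.6%, 27.6%, 11.8% and 8.82%, so that for these letters the members were close to other ZNF genes. In members, ZNF genes of other chromosomes and all promoters, the shares were 2.11%, 4.21% and 11.1% for TATAAA, 5.26%, 4.67% and 6.49% for CACGTG, 5.26%, 3.74% and 1.77% for TGACGTCA, 3.16%, 6.54% and 2.81% for GCATGCGC, and 3.16%, 0.935% and 1.37% for AAGATGGC. The longer CCAATCAG, chosen after these sequences were seen and containing CCAAT, was found in 16 member promoters (16.8%), in 12.2% of ZNF genes of other chromosomes, in 5.87% of other genes of chromosome 19 and in 3.98% of all. It stood in 9 of 9 matched promoters of the centromeric group and in 5 of 7 in the group at chr19:11483427-12640098, and in none of the other 5 groups. TGACGTCA, picked after the values were seen, stood in 4 of 8 promoters of the group at chr19:8509678-9793180. Other letters had high shares in other groups too. GGGCGG stood in 7 of 7 promoters at chr19:11483427-12640098, and CCGGAAG in 6 of 9 in the centromeric group and 13 of 23 at chr19:55576774-58481230. A match describes letters in the sequence and shows neither binding nor a cause.

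Intron counts changed for fewer members. Between the times in DMSO 8 rose and 9 fell of the 98 in the test (17.2% and 16.2% of all 9618 genes, and 33.4% in either direction), and in cisplatin 13 rose and 6 fell (16.4% and 15.4%, and 31.8%). With a library left out, 9 to 14 members were called in DMSO and 12 to 17 in cisplatin, and DESeq2 called 12 and 11. The split into rises and falls depends on the scaling. With library totals it was 5 and 10 in DMSO and 8 and 12 in cisplatin, and with the scaling of the exon counts 6 and 9, and 7 and 9. Under library totals the median of all genes was -0.15 in DMSO and -0.12 in cisplatin, against -0.01 and -0.02 with the main scaling. ZNF333 was at 40.3, 58.0 and 48.9 intron CPM in DMSO and 46.3, 68.0 and 51.2 in cisplatin at 24 h, and at 89.9, 87.2 and 77.6 and 89.2, 86.7 and 78.0 at 72 h. The times did not overlap, and introns rose by 0.78 ± 0.16 (adjusted p 0.000104) and 0.59 ± 0.15 (adjusted p 0.00182), less than the exons in cisplatin (0.94), where the ratio changed by 0.42 (unadjusted p 0.0251, adjusted p 0.12). ZNF726, whose introns outnumbered its exons in every library, went the other way, from 85.8, 83.5 and 82.9 to 64.0, 54.1 and 52.5 in DMSO and from 89.8, 77.8 and 99.2 to 60.5, 48.6 and 51.5 in cisplatin. Its change was -0.57 ± 0.15 (adjusted p 0.00219) and -0.72 ± 0.15 (adjusted p 8.67e-05), and 3 genes without a symbol overlap it. ZNF528 rose by 0.61 and 0.70, and ZNF444 by 0.52 and 0.68, where the DMSO value of ZNF444 passed in 10 of 14 alternatives. ZNF224 rose in DMSO (0.64) and ZNF587B fell there (-0.54), and in cisplatin ZNF480 (0.89), ZNF780A (0.60) and ZNF548 (0.58) rose, of which ZNF780A passed in 8 and ZNF548 in 10 of 14 alternatives. All 14 alternatives kept the calls of ZNF473, ZNF599, ZNF333, ZNF528, ZNF530, ZNF726 and ZNF587B in DMSO, and of ZNF333, ZNF528, ZNF444 and ZNF726 in cisplatin. ZNF599, with exon counts at 24 h of 12, 9 and 5 in DMSO and 3, 9 and 6 in cisplatin, was a member only with libraries of 72 h counted. Its rise in introns thus supports no direction over time. Of 96 members in both tests, called in exons and introns were 10 with the same sign and 2 with opposite signs in DMSO (25.7% and 1.51% of all 9156 genes in both tests), and 11 and 2 in cisplatin (23.8% and 1.70%). Across 96 members the exon and intron changes had a Spearman correlation of 0.43 in DMSO and 0.22 in cisplatin, from the same libraries.

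The exon/intron ratio, which asks whether spliced RNA changed relative to RNA with introns, rose with time in DMSO for 3 members and fell for none (edgeR), where 8.09% of all 9380 genes rose, 3.37% fell and 11.5% changed. In this comparison 16 members had an unadjusted p under 0.05 in either direction (edgeR), and DESeq2 called 2 members in all. No share of all genes stands beside these counts, so they are not compared with other genes. In cisplatin 6 members rose and 1 fell, against 8.36% and 3.56% of all genes and 11.9% in either direction. With a library left out, the members called ranged from 1 to 5 in DMSO and from 4 to 9 in cisplatin. Here too the standard errors of the members were larger (median 0.39 in DMSO and 0.36 in cisplatin, against 0.22 and 0.20). No member passed in both treatments, where 589 of all genes did (54.8% of the calls in DMSO and 52.7% of those in cisplatin). The members' median was 0.16 in DMSO and 0.14 in cisplatin, against 0.10 and 0.11 over all genes.

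ZNF579 (ENSG00000218891, chr19:55576774-55580848, minus strand) is a short gene with no overlapping gene. Its ratio was 19.5, 21.6 and 12.3 in DMSO and 17.3, 15.1 and 18.9 in cisplatin at 24 h, 45.1, 33.6 and 38.2 in DMSO at 72 h, and 20, 22.3 and 17.3 in cisplatin at 72 h. The DMSO libraries of 72 h stood above all 9 others. The log2 change over time was 1.14 ± 0.22 in DMSO (adjusted p 0.00108), with intron counts falling by 0.65 (adjusted p 0.0216) and exon counts rising by 0.43, and 0.26 ± 0.20 in cisplatin (adjusted p 0.433). The count of intron fragments was 30 to 162 per library.

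ZNF480 (ENSG00000198464) had a ratio of 31.0, 32.4 and 68.2 in DMSO and 43.2, 27.4 and 41.0 in cisplatin at 24 h, and of 18.98, 19.3 and 26.5 and 20.3, 12.3 and 17.3 at 72 h. Both treatments were lower at 72 h without overlap of the times, by -0.78 ± 0.27 in DMSO, which did not pass (adjusted p 0.0633), and by -1.12 ± 0.25 in cisplatin (adjusted p 0.00306). Exons fell and introns rose in both. ZNF302 had 4.14, 5.36 and 4.95 in DMSO at 24 h and 7.76, 8.63 and 5.95 at 72 h, a rise of 0.60 ± 0.18 (adjusted p 0.0257) that passed in 6 of 11 alternatives, with adjusted p from 0.0129 to 0.126. The other calls, named after their values were seen, were ZNF473 in DMSO and ZNF627, ZNF581, ZNF653, ZNF766, ZNF574 and ZNF253 in cisplatin. ZNF473, part of the machinery that cleaves histone pre-mRNA, had ratios of 29.0, 43.5 and 22.1 and of 118, 60.7 and 52.0 in DMSO at 24 and 72 h, from 6 to 33 intron counts (1.07 ± 0.30, adjusted p 0.0204), a call that was lost in at least 1 of 11 alternatives. ZNF627 had 13.7, 10.1 and 18.4 in cisplatin at 24 h and 33.9, 26.6 and 32.4 at 72 h (1.22 ± 0.26, adjusted p 0.00265), and ZNF581 had 34.2, 29.9 and 23.3 and 96.2, 67.2 and 88.1 (1.46 ± 0.29, adjusted p 0.00131). Both were apart in time. Of the 7 calls in cisplatin, only those of ZNF581, ZNF480 and ZNF627 passed in all 11 alternatives. In cisplatin 7 of the 76 members that overlap another annotated gene passed and 0 of the 30 that do not, and in DMSO 1 of 76 and 2 of 30, a difference that was not tested.

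**Figure D5:**
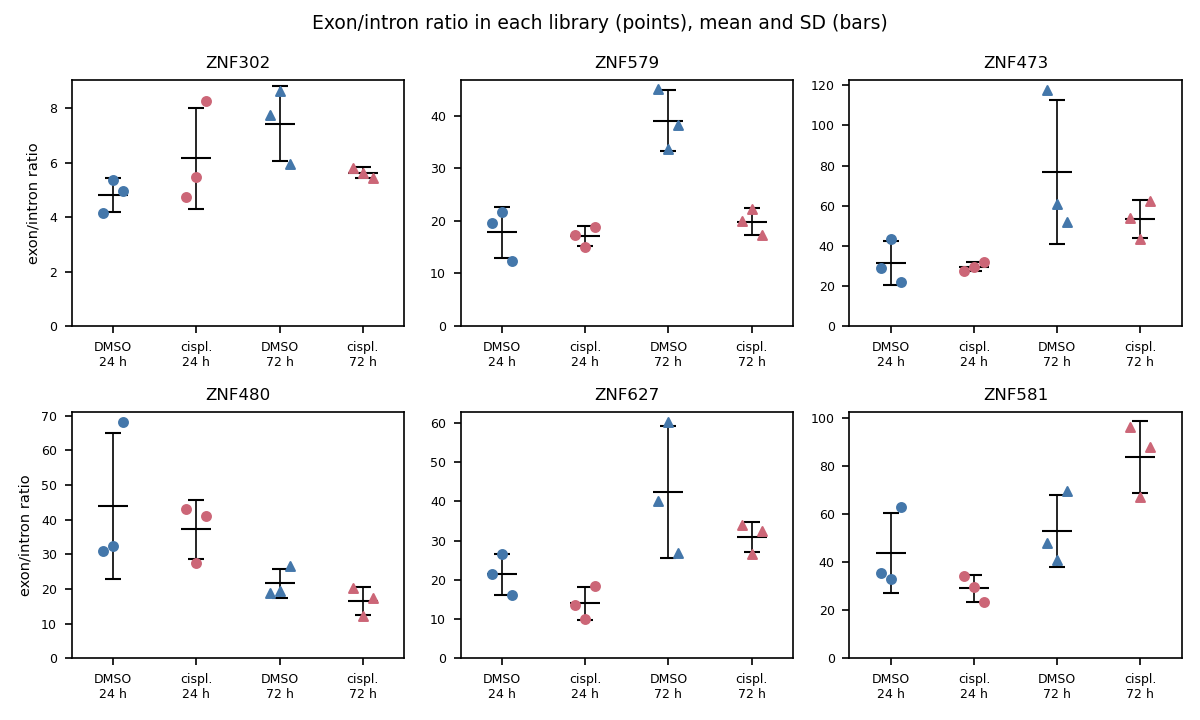
Exon/intron ratio of 6 members in each library, circles for 24 h and triangles for 72 h, blue for DMSO and red for cisplatin, with the mean and SD of 3 libraries. ZNF579 had 33.6 to 45.1 in DMSO at 72 h and 12.3 to 22.3 in the other groups, and ZNF480 was lower at 72 h in both treatments.

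Cisplatin was compared with DMSO at each time to ask how the drug changed these genes. No member passed with edgeR or with DESeq2 in exon counts, intron counts or ratio at either time. In exon counts at 24 h, 2 members had an unadjusted p under 0.05, where 2.49% of all genes did and 0.0% passed after adjustment. At 72 h it was 7 members, with 12.6% and 0.0287% of all genes. In intron counts it was 4 members at 24 h (5.0% of all genes, and 0.0208% after adjustment) and 6 at 72 h (6.46% and 0.0416%), and in the ratio 3 at 24 h (6.33% and 0.0%) and 6 at 72 h (6.24% and 0.0213%). The median ratio of the members was lower in cisplatin by -0.12 at 24 h and -0.11 at 72 h, next to -0.09 and -0.08 over all genes. The 2 comparisons share no library with each other, and each shares its libraries with the comparisons over time.

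The smallest p belonged to ZNF579 at 72 h, whose ratios are given above with the DMSO libraries at 33.6 to 45.1 and the cisplatin libraries at 17.3 to 22.3. The log2 difference was -0.95 ± 0.20 (unadjusted p 7.83e-05, adjusted p 0.184). Intron CPM was 17.6, 21.5 and 20.9 in DMSO and 32.3, 34.9 and 44.8 in cisplatin, a difference of 0.87 ± 0.21 (adjusted p 0.104, and 0.0237 to 0.895 over the alternatives, 2 of 14 under 0.05). The groups did not overlap, while exon CPM was 53.7, 49.7 and 55.7 in DMSO and 46.0, 56.4 and 57.9 in cisplatin, which overlapped. ZNF490, at 4.16, 4.21 and 4.95 exon CPM in DMSO and 7.17, 6.19 and 6.24 in cisplatin at 72 h, had a difference of 0.55 ± 0.14 (unadjusted p 0.000563, adjusted p 0.151), and ZNF714, described above, one of 0.31 ± 0.10 (adjusted p 0.202). Given as values only, the other members named by the rule had exon differences at 24 h of 0.27 (ZNF528), 0.11 (ZNF480), -0.25 (ZNF17) and -0.18 (ZNF432), ratio differences of -0.29 (ZNF333 at 24 h) and -0.37 (ZNF302 at 72 h), and intron differences of 0.27 (ZNF547 at 24 h) and 0.48 (ZNF587 at 72 h), all with adjusted p of 0.704 or more. Each had the 3 libraries of cisplatin on 1 side of those of DMSO, which the naming rule required, so this is no separate support.

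The difference between the cisplatin effects at 72 and 24 h was also tested, and no member passed with edgeR or DESeq2. An unadjusted p under 0.05 was found for 6 members in the ratio (4.55% of all genes, and 0.0% after adjustment), 4 in exon counts (9.43% and 0.0%) and 7 in intron counts (5.71% and 0.0416%). ZNF579 had the smallest p in the ratio (-0.88 ± 0.30, unadjusted p 0.00618, adjusted p 0.998) and in intron counts (0.93 ± 0.30, adjusted p 0.727).

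A binomial logistic regression of exon against intron fragments, which leaves out the spread between replicates, called more members. It called 17 of 106 for time in DMSO (33.7% of all genes), 35 in cisplatin (40.6%), 2 for cisplatin at 24 h (11.5%) and 8 at 72 h (11.4%). At 24 h these were ZNF627 (-0.74, adjusted p 0.0147) and ZNF160 (-0.75, adjusted p 0.0256), both lower in cisplatin. At 72 h ZNF579 was lower (-0.92, adjusted p 1.7e-07), as were ZNF302, ZNF480, ZNF548 and ZNF587, and ZNF253, ZNF616 and ZNF468 were higher. With a spread estimated for each gene from the replicates, no member passed in any of the 4 comparisons, and 10, 19, 5 and 6 had an unadjusted p under 0.05 (18.7%, 22.0%, 5.48% and 6.82% of all genes, and 0.657%, 0.988%, 0.0% and 0.0% after adjustment).

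Of the members known for their targets, ZNF274, which recruits SETDB1 to the ends of zinc finger genes, rose in exons, from 18.1, 17.1 and 16.8 to 21.6, 20.4 and 21.5 exon CPM in DMSO and from 17.2, 18.6 and 16.7 to 22.0, 22.6 and 18.4 in cisplatin (0.29 ± 0.09 and 0.27 ± 0.09, adjusted p 0.00634 and 0.00939). The times overlapped only in cisplatin, where the call was lost in at least 1 of 13 alternatives. ZNF417 and ZNF587, paralogues that act on HERV-K elements, did not pass in exon counts, with changes of -0.13 and 0.03 in DMSO and 0.00 and 0.04 in cisplatin, while introns of ZNF587 rose in cisplatin (0.58, adjusted p 0.0285), a call not kept in all 14 alternatives. ZNF350, a KRAB protein that binds BRCA1, rose by 0.45 and 0.42 (adjusted p 0.00121 and 0.00224), and was picked after its values were seen.

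Partners of KRAB proteins were looked at in exon counts as well. Of 25 genes of the KAP1 machinery, 18 fell and 1 rose in DMSO and 17 fell and 2 rose in cisplatin between the times, with medians of -0.34 and -0.32, where 32.5% and 31.5% of all genes fell. TRIM28 itself had a mean of 590 exon CPM in DMSO at 24 h and 428 at 72 h, and 584 and 448 in cisplatin (-0.46 and -0.38, adjusted p 1.41e-07 and 2.55e-06). SETDB1 rose, from 66.6 to 85.1 and from 70.8 to 88.3 (0.35 and 0.32, adjusted p 7.43e-06 and 2.76e-05). The largest falls were those of UHRF1 (-2.51 and -2.15), which guides DNA methylation after replication, and of SUV39H2 (-1.18 and -1.16) and DNMT1 (-1.15 and -0.93). None of the 25 passed for cisplatin against DMSO in exon counts with edgeR (0.0% of all genes at 24 h and 0.0287% at 72 h). An unadjusted p under 0.05 was found for 0 of them at 24 h and 4 at 72 h, where 2.49% and 12.6% of all genes had one.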

How the data were processed

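Poly(A) RNA of TYK-nu cells was sequenced in 12 libraries, 3 for each of 4 groups. The authors trimmed reads with Trim Galore 0.6.0, aligned them to GRCh38 with HISAT2 2.1.0 and deposited counts of exon and of intron fragments per gene, made with HTSeq-count on Ensembl release 98 and not normalized. The strand option of the counting is not stated. Symbols and positions came from GENCODE release 44 by Ensembl identifier, and were found for 17485 of 17508 genes. Members and gene lists were chosen with earlier results of these data known.

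Exon and intron counts were tested with edgeR 4.0.16 (quasi-likelihood, TMM, filterByExpr) in R 4.3.3, with all 12 libraries in one fit. For the ratio, exon and intron counts of a library stood side by side with a term for each library, for genes with at least 10 counts of each kind in at least 3 libraries. A binomial regression used pairs of groups and a Wald test. All p-values were adjusted by Benjamini-Hochberg over every gene tested, with a threshold of 0.05, and log2 changes are those of the fit. The fits were tried on simulated counts. Depth limits the ratio, since intron counts summed to only 1185012 to 4840181 per library. Python 3.11.15, numpy 2.4.6, pandas 2.3.3, scipy 1.17.1 and matplotlib 3.10.9 served for summaries and plots.

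Members were named by a rule: for each comparison and measure, up to 6 with the largest rise and 6 with the largest fall that passed, had a mean of at least 50 counts (introns for the ratio) over the 6 libraries, and did not overlap between the groups. Where none passed, up to 2 in each direction with the smallest p were given as values. Added were the extremes of level and ratio per length, the members nearest the minimum, and genes listed for known roles. Promoters were searched over 250 bases.

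Alternatives were DESeq2 1.42.0, RLE factors, library totals, exon scaling of introns, other count minimums, fits to 6 libraries, a likelihood ratio test, quasi-binomial spread, thinned counts, members overlapping no gene, a replicate block and each library left out. For the difference between cisplatin effects, the last 2 and DESeq2 were chosen after seeing the data. No library was left out otherwise.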

Additional observations from a re-analysis of the deposited data

How the results depend on the processing

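Counts of members past the threshold were within 1.5 times the reported value under most alternatives. The exceptions follow, and their cause was not tested. DESeq2 gave 4 members for the ratio over time in cisplatin and 11 for introns there, against 7 and 19. Thinning every library to the smallest total left 4 for that ratio. The 30 members that overlap no other gene held 0 of the ratio calls in cisplatin (5 at an unadjusted p under 0.05), 10 and 12 of the exon calls in DMSO and cisplatin, and 5 and 4 of the intron calls, with fewer genes counted by construction. With a minimum of 1 count, 1 member passed for cisplatin at 72 h in exon counts and 1 in intron counts, and a fit to 6 libraries gave 1 in intron counts. The quasi-binomial regression gave 0 in all 4 comparisons. With thinned counts, the median intron change for cisplatin at 72 h was -0.0043, against 0.056. With a library left out, the ratio calls ranged from 1 (without DMSO 72 h replicate 1) to 5 (without replicate 3) in DMSO and from 4 (without replicate 1 of cisplatin at 24 h or 72 h) to 9 in cisplatin. Intron calls ranged from 9 (without DMSO 72 h replicate 2; 10 without DMSO 24 h replicate 3) to 14, and in cisplatin from 12 (without replicate 1 or 2 at 24 h or replicate 2 or 3 at 72 h) to 17. Exon calls ranged from 36 to 41 and from 35 to 40. The binomial regression gave 14 to 17 and 25 to 34 for time, 0 (without cisplatin 24 h replicate 2) to 5 (without replicate 1 or 3) for cisplatin at 24 h, and 4 (without DMSO 72 h replicate 1; 5 without replicate 2) to 8 at 72 h. With a replicate block, the counts were 4 and 7 for the ratio over time, 43 and 38 for exons and 16 and 19 for introns, 0 for cisplatin in each, and 17, 35, 2 and 9 for the binomial regression. Mean correlations of the deviations of libraries with the same number were 0.070, 0.098, -0.086 and 0.0057 in exon counts, every library was most like its own number in 2 of 12 combinations of measure and comparison (exons over time in cisplatin, introns for cisplatin at 72 h), and what the number stands for is not stated. Of the exon calls, 30 of 43 in DMSO and 25 of 40 in cisplatin passed in every one of 13 settings; of the intron calls 7 of 17 and 4 of 19 did in 14, and of the ratio calls 1 of 3 and 3 of 7 in 11.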

Other observations

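Of the genes of the name rule on chromosome 19 that were not members, 34 had enough exon counts for the exon test. Between 24 and 72 h, 8 rose and 5 fell in DMSO, and 7 rose and 8 fell in cisplatin (edgeR), with medians of 0.03 and 0.11, where 32.6% of all genes rose and 32.5% fell in DMSO and 32.0% and 31.5% in cisplatin. Of the zinc finger genes of the chromosome with other names, 5 were at the count minimum, and in exon counts 1 of these rose and 2 fell in DMSO and 1 rose and none fell in cisplatin. Among those short of the minimum but in the exon test, ZSCAN22 fell in DMSO (-0.45, adjusted p 0.00749, edgeR). In cisplatin ZSCAN5A fell (-0.49, adjusted p 0.0425) and ZFP14, with 7 to 71 exon counts, rose (0.88, adjusted p 0.0452). MZF1, a myeloid zinc finger gene, rose in both (0.67 and 0.59, adjusted p 8.25e-06 and 3.85e-05), and its exon/intron ratio rose as well (0.66 and 0.67, adjusted p 0.00929 and 0.00679). ZBTB7A (-0.27) and ZBTB45 (-0.25) fell in DMSO. These genes were picked after their values were seen.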
